A study of Mus musculus with 12 samples.

Results

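The 10 genes described here are Tnf, which encodes the inflammatory cytokine tumour necrosis factor, and 9 regulators of the NF-kB pathway that TNF switches on: Nfkb1, Nfkb2, Relb, Nfkbia, Nfkbiz, Tnfaip3, Traf1, Birc3 and Zfp36. They were chosen by gene symbol from the 20819 genes of the deposited table. All 10 are in the table and all 10 passed the filter on low values, as did 14558 genes in all. The samples are mouse kidney tubuloids, which are clusters of tubular epithelial cells grown in Matrigel from the dissociated renal cortex of 4 wildtype mice. For 12 h they received vehicle, myoglobin alone, or myoglobin together with dexamethasone at 100 nM, and each treatment has 4 libraries of messenger RNA. Every dexamethasone library also received myoglobin, so the response to dexamethasone without myoglobin was not measured. The labels do not say which library came from which mouse or whether the libraries of a group are separate cultures, so p-values measure only the spread between these libraries, which may be technical. The age, sex and strain of the mice are not given in the sources used here, nor is the concentration of myoglobin.

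Myoglobin is the oxygen-binding haem protein of muscle, and the series design names it as the agent that injures the tubules. Dexamethasone is a synthetic glucocorticoid, a class of drugs known for damping the transcription of inflammatory genes. NF-kB transcription factors are held in the cytoplasm by IkB proteins. When TNF binds its receptor, adaptor proteins and ubiquitin ligases activate a kinase that marks IkB for destruction, and the freed factors enter the nucleus. Among the genes they switch on are Tnf itself and the proteins that end the signal: new IkB, enzymes that remove ubiquitin chains from the receptor complex, and proteins that destroy the Tnf messenger RNA. Tubular epithelium is known to express this pathway in acute kidney injury.

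The values are normalised read counts, which are reads scaled by a factor for each library and then rounded to whole numbers. Before that scaling the vehicle libraries held an estimated 5.51 to 5.87 M reads, the myoglobin libraries 5.28 to 5.92 M, and those with both agents 3.25 to 5.53 M. Replicate 4 of myoglobin with dexamethasone stands apart: it is the one with 3.25 M reads, and its 2179 genes at 0 compare with 1051 to 1544 elsewhere. Within its group it has the highest value of 6 of the 10 genes and the lowest of 2. Fkbp5, a standard glucocorticoid target, rose by 1.19 ± 0.073 (log2 change ± SE) when dexamethasone was added to myoglobin (limma adjusted p = 1.53e-07). Markers of tubular epithelium summed to 10603 to 10803 with vehicle, 9962 to 10478 with myoglobin and 10518 to 14069 with both. The 14069 was that of replicate 4 of the dexamethasone group, and 0 of the 10 tested markers were called with dexamethasone added. Of the 11 listed genes 10 had a mean of 10 or more, and Cubn, a proximal tubule receptor, was near 0. Of 6 leukocyte markers, 5 had means below 10 (Tyrobp, Fcer1g, Laptm5, Cd52 and Coro1a), and so did Csf1r, Itgam, C1qa and C1qb among the 9 measured macrophage and monocyte markers. The macrophage and monocyte list summed to 479 to 616, 617 to 824 and 520 to 753 in the 3 groups in that order. Most of it was Cd14, a lipopolysaccharide co-receptor whose mean was 352, 507 and 464. Cd68, Lyz2, Mrc1 and Adgre1 of this list were not absent either: Cd68 had means of 98.75, 82.25 and 68, and Lyz2 of 67.75, 79.25 and 58.5. Mrc1 had means of 17, 19 and 8.75, and Adgre1 of 8.75, 14 and 7.75. The leukocyte list, nearly all of it Ptprc, summed to 426 to 501, 345 to 398 and 423 to 477. The fibroblast and stroma list, most of it Rgs5, summed to 406 to 478, 295 to 349 and 179 to 275, without overlap. In each step 2 of its 7 tested genes were called lower, among them Rgs5, with means of 267, 172 and 127. The endothelium list, most of it Flt1, summed to 57 to 63, 30 to 62 and 34 to 49, the podocyte list to 666 to 991, 569 to 799 and 612 to 723, and the lymphocyte list to at most 14 in any library. The part of these other cells in the levels below was not tested. In bulk samples, fewer cells of a type and less RNA per cell cannot be told apart.

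Myoglobin raised 8 of the 10 genes and lowered 1. The cytokine gene Tnf, the ubiquitin ligase gene Birc3, the inhibitor genes Tnfaip3 and Nfkbia, and Nfkbiz, a nuclear cofactor of NF-kB, rose by 75.1% to 153%, the NF-kB subunit genes Relb, Nfkb2 and Nfkb1 by 29.3% to 53.0%, and Traf1, a signalling adaptor, fell by 39.4%. Adding dexamethasone raised Zfp36, a gene for a protein that destroys cytokine messenger RNA, by 20.8%. None of the other 9 genes passed the test. At an unadjusted limma p below 0.05 there are 2 of the 10, Zfp36 and Tnf, beside 3226 of the 14558 tested genes. A gene is called higher or lower at an adjusted p below 0.05 by limma on log2 of the value plus 1, and over all tested genes myoglobin gave 8.71% called higher and 9.62% called lower. The corresponding shares for dexamethasone added to myoglobin were 3.08% and 3.9%, so 1 call upward among 10 genes is to be read against 3.08%. The median log2 change of the 10 genes was 0.71 with myoglobin, beside 0.00 over all tested genes, and 0.01 with dexamethasone added, beside 0.01.

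**Figure D1:**
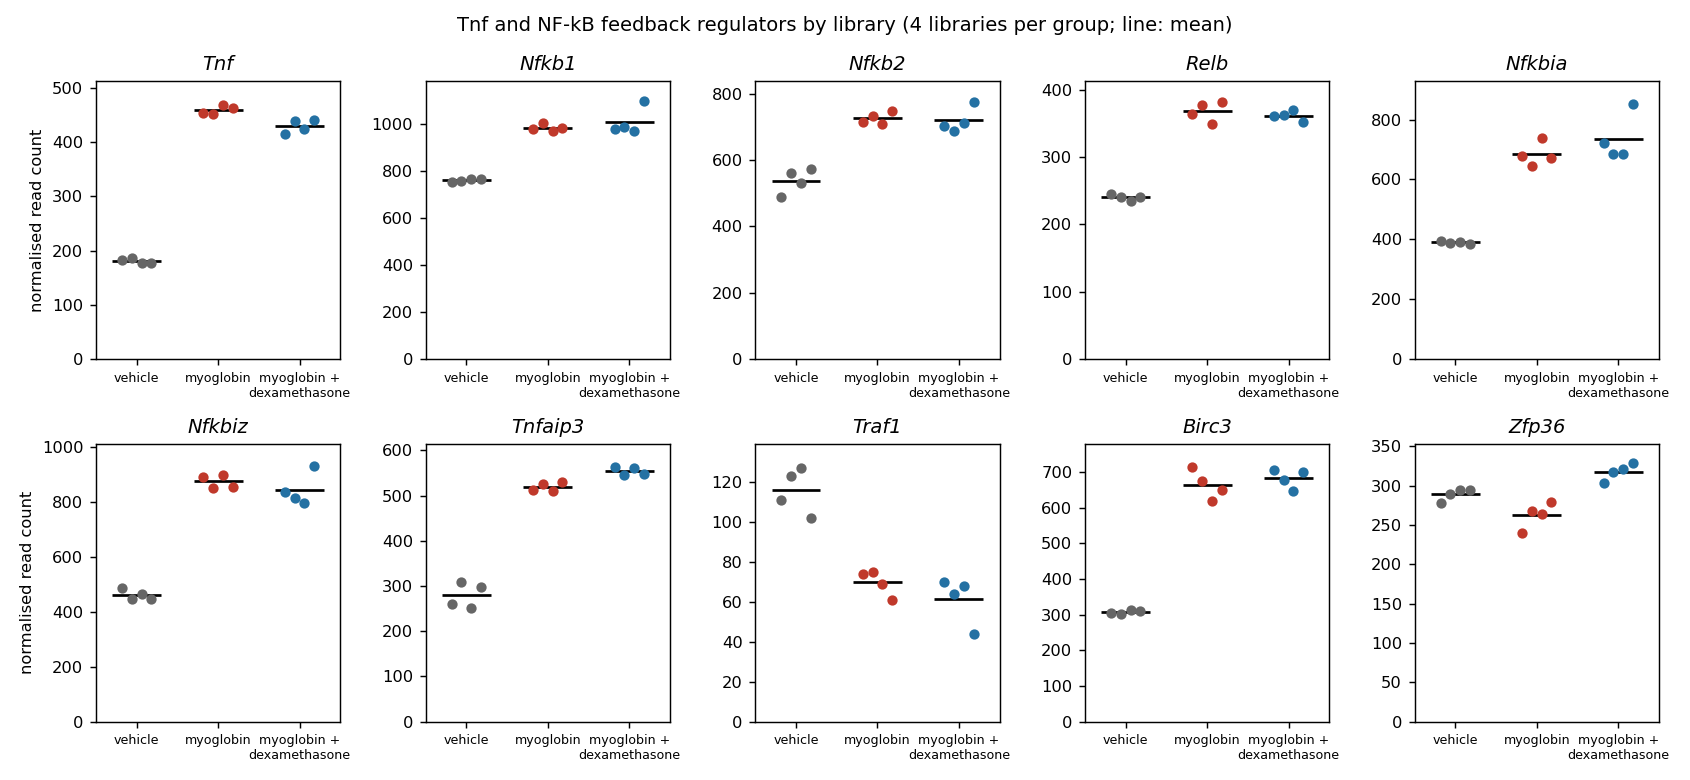
Normalised read count (vertical axis, from 0) of each of the 10 genes in the 12 libraries; points are libraries in the order of replicates 1 to 4, colours are the treatments, and lines are group means. In 8 panels both myoglobin groups lie above vehicle, in the Traf1 panel they lie below it, and in the Zfp36 panel the libraries with dexamethasone lie above all others.

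Levels of different genes were compared roughly, per kb of exon, where the length covers every annotated exon of a gene. That length can exceed the length of the message made, so the order is approximate. Nfkb1, with 12061 bases of exon, had the highest vehicle mean of the 10 before this scaling, at 761. Per kb of exon, Nfkbia was the most abundant of the 10 in every group. It stood at 242 normalised reads per kb with vehicle, 425 with myoglobin and 457 with both. With vehicle Nfkb2 (117) and Tnf (110) came next, then Nfkbiz (92.0), Zfp36 (83.4), Nfkb1 (63.1), Relb (61.8), Birc3 (61.4) and Tnfaip3 (38.6), and Traf1 was the scarcest at 13.1. With myoglobin Tnf took the second place at 280, ahead of Nfkbiz at 175 and Nfkb2 at 158, and Birc3, at 133, passed Relb, Nfkb1 and Zfp36. With both agents Tnf was at 262, and Traf1 remained the lowest at 6.97. Neighbours in this order such as Nfkb1, Relb and Birc3 with vehicle were not tested against each other.

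Tnf stood at 182, 187, 177 and 177 in vehicle libraries 1 to 4, at 454, 452, 469 and 463 with myoglobin, and at 415, 438, 425 and 440 with both agents. The 3 groups do not overlap: vehicle is lowest, and each library with dexamethasone lies below each library with myoglobin alone, though much nearer to these than to vehicle. Myoglobin raised Tnf 2.53-fold, from 181 ± 4.79 to 460 ± 7.94 (SD, n = 4), a log2 change of 1.34 ± 0.042 (limma adjusted p = 9.33e-12), the rank of 124 among the 14558 tested genes from the largest rise down. With dexamethasone the mean was 430 ± 11.7 (SD, n = 4), a log2 difference of -0.10 ± 0.042 from myoglobin alone. This difference did not pass the test over all genes (limma adjusted p = 0.188), and its 95% interval was -0.19 to -0.01. The adjusted p stayed between 0.0872 and 0.331 in the 21 other settings tried. Genes in which the dexamethasone libraries all lie below the myoglobin libraries make up 6.19% of those tested, and genes in which they all lie above make up 7.03%. Of the 10 genes, 1 (Tnf) is of the former kind and 2 (Tnfaip3 and Zfp36) of the latter. Against vehicle, myoglobin with dexamethasone left Tnf 2.37-fold higher, a log2 change of 1.24 ± 0.042 (limma adjusted p = 1.29e-11). The gene is ENSMUSG00000024401 on the minus strand of mm10 chr17:35199381-35202007.

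The subunits of NF-kB itself rose with myoglobin by smaller factors. Nfkb1 encodes a precursor that is cut to a DNA-binding subunit of the canonical pathway, and lies on the minus strand at chr3:135584655-135691547. It stood at 752, 757, 768 and 767 with vehicle, at 979, 1006, 969 and 984 with myoglobin, and at 978, 987, 969 and 1099 with both. The myoglobin libraries all lie above vehicle and among those with dexamethasone, of which replicate 4 is the highest. The log2 change with myoglobin was 0.37 ± 0.041 (limma adjusted p = 9.92e-06), and with dexamethasone added it was 0.03 ± 0.041, with a 95% interval of -0.06 to 0.12.

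Nfkb2 and Relb encode the partners of the non-canonical pathway, which CD40 and the lymphotoxin receptor drive. Nfkb2 stood at 488, 562, 530 and 573 with vehicle, at 716, 734, 708 and 748 with myoglobin, and at 703, 688, 713 and 777 with both. Relb, on the minus strand at chr7:19606217-19629438, stood at 245, 240, 235 and 240, then at 364, 377, 349 and 382, then at 361, 363, 369 and 352 in the same order of groups. For both genes vehicle lies apart from the other groups, which overlap each other. The log2 change with myoglobin was 0.43 ± 0.052 for Nfkb2 (limma adjusted p = 2.41e-05) and 0.61 ± 0.044 for Relb (limma adjusted p = 8.24e-08). With dexamethasone added, the 95% interval of the log2 difference was -0.13 to 0.10 for Nfkb2 and -0.12 to 0.07 for Relb. Nfkb2 lies on the plus strand at chr19:46304320-46312385 and overlaps Psd and AC114539.1 on the other strand. Whether reads were counted by strand is not given in the sources used here, so reads from these genes cannot be told apart.

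Nfkbia and Nfkbiz belong to the IkB family. Nfkbia encodes IkB-alpha, which NF-kB induces within minutes of its own release and which returns the factors to the cytoplasm. It lies on the minus strand at chr12:55489410-55492647 and stood at 394, 388, 391 and 385 with vehicle, at 680, 646, 737 and 671 with myoglobin, and at 721, 686, 685 and 853 with both. Vehicle lies apart, and the other groups overlap, with replicate 4 of the dexamethasone group the highest library of all. Nfkbia rose by 0.81 ± 0.062 on the log2 scale with myoglobin (limma adjusted p = 1.90e-07). Adding dexamethasone gave a difference of 0.10 ± 0.062 (limma adjusted p = 0.348), which was 0.03 without that library (adjusted p = 0.726). Nfkbiz encodes IkB-zeta, a nuclear member of the family that helps NF-kB switch on a second wave of genes rather than holding it back. It lies on the minus strand at chr16:55811375-55838899 and stood at 486, 449, 464 and 447 with vehicle, at 894, 854, 899 and 857 with myoglobin, and at 837, 817, 799 and 932 with both. Its rise with myoglobin was 0.92 ± 0.049 (limma adjusted p = 2.83e-09). With dexamethasone added the log2 difference was -0.05 ± 0.049, with a 95% interval of -0.16 to 0.05, and 3 of those 4 libraries lie below all 4 with myoglobin alone.

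Tnfaip3 encodes the ubiquitin-editing enzyme that takes apart the chains on which the TNF receptor complex is built. It lies on the minus strand at chr10:19000910-19015657 and stood at 261, 308, 251 and 297 with vehicle, at 512, 526, 509 and 530 with myoglobin, and at 564, 546, 561 and 547 with both. The groups follow in that order without overlap. Tnfaip3 rose by 0.90 ± 0.057 with myoglobin (limma adjusted p = 2.47e-08). The further difference with dexamethasone was 0.09 ± 0.057, with a 95% interval of -0.03 to 0.22 (limma adjusted p = 0.349), and did not pass.

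Promoter sequences of Nfkbia, Tnfaip3 and Nfkb2 are shown. Of the genes with a promoter sequence, they are those whose start region holds the NF-kB consensus motif, the letters the factor is known to bind. RefSeq (GRCm38.p6, the mm10 assembly) gave the region from 250 bases before each start site for 7 of the 10 genes. Nfkb1, Relb and Nfkbiz had none, so whether they hold the motif is not known here. Nfkb2 had 3 such windows and Tnfaip3 2, and a gene counts if any of its windows matches. The consensus, named here by its name alone and searched on both strands, is in a window of 3 of the 7 genes and of 8.23% of 27025 genes. A relaxed form, which keeps only the outer G and C bases of the consensus and so overlaps it, is in 6 of the 7, all but Traf1, and in 48.7% of genes. The inner letters of the glucocorticoid receptor motif, ACANNNTGT, are in 0 of the 7 and in 6.76% of genes, which says only that they are not in these windows. Not all matching stretches of Nfkb2 are shown, and those shown also overlap an exon of AC114539.1, a gene on the other strand. Each line gives 30 bases 5′ to 3′ on the gene's strand, with the consensus match in capitals.
Nfkbia, chr12:55492657-55492686, minus strand, just before the gene: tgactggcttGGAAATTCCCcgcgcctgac
Tnfaip3, chr10:19015411-19015440, minus strand, just before one start site and within an intron of a longer transcript: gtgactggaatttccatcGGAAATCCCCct
Tnfaip3, chr10:19015516-19015545, minus strand, upstream in the same intron: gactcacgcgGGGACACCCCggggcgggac
Nfkb2, chr19:46304689-46304718, plus strand, before one start site and within an exon of another transcript: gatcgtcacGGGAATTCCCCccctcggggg
Nfkb2, chr19:46305449-46305478, plus strand, before a later start site, in an intron: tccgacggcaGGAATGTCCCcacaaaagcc
Nfkbia, Tnfaip3 and Nfkb2 rose with myoglobin by 0.81, 0.90 and 0.43 on the log2 scale. Birc3 and Tnf, whose windows hold only the relaxed form, rose by 1.11 and 1.34. Zfp36, whose window also holds only the relaxed form, did not rise: its log2 change was -0.14 and was not called. That of Traf1, with neither form, was -0.72. A match of letters is a description and does not show that the factor was bound.

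Traf1 and Birc3 encode proteins that meet at the TNF receptor complex and are both known as NF-kB targets, and they went in opposite directions. Birc3, a ubiquitin ligase that keeps the complex signalling and protects cells from death, lies on the minus strand at chr9:7848699-7873186. It stood at 305, 303, 312 and 310 with vehicle, at 715, 675, 618 and 650 with myoglobin, and at 706, 677, 648 and 700 with both. The groups with myoglobin lie far above vehicle and overlap each other. Its rise with myoglobin was 2.15-fold (log2 change 1.11 ± 0.047, limma adjusted p = 1.92e-10), next after Tnf among the 10 genes, and the difference with dexamethasone added was 0.04 ± 0.047, with a 95% interval of -0.06 to 0.14.

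Traf1, an adaptor that joins the receptor-bound proteins TRAF2 and the ligase encoded by Birc3, lies on the minus strand at chr2:34941750-34961772. It stood at 111, 123, 127 and 102 with vehicle, at 74, 75, 69 and 61 with myoglobin, and at 70, 64, 68 and 44 with both. Every library with myoglobin lies below every vehicle library, and replicate 4 with dexamethasone is the lowest. Traf1 fell by 0.72 ± 0.14 on the log2 scale with myoglobin (limma adjusted p = 0.00168). With dexamethasone added the difference was -0.20 ± 0.14 (limma adjusted p = 0.430), which was -0.05 without replicate 4. Ptprc, a leukocyte gene, fell as well, from a mean of 447 to 342 with myoglobin, and stood at 423 with both agents, where the mean of Traf1 was 61.5. The summed fibroblast and stroma markers, most of them Rgs5, were lower in both steps, in the same direction as the means of Traf1. Not all of the list followed with myoglobin. The mean of Dcn went from 18.25 to 28.75 and that of Pdgfrb from 15.75 to 17.75, and Col1a1 and Lum, near 0, were also higher. The part of these markers in the change of Traf1 was not tested. The 5 genes whose pair of log2 changes lies closest to that of Traf1 were S100g, Septin4, Edil3, Lingo1 and Tceal3. They lie at Euclidean distances over the 2 comparisons of 0.023 to 0.042. Of these, S100g, Edil3 and Tceal3 were not called with myoglobin (limma adjusted p = 0.0521, 0.326 and 0.0881). Their vehicle means were 51.5, 25 and 17.25. The 5 closest to Tnf were Prox1, Ltb, Slc1a1, Mctp1 and Wif1, at 0.040 to 0.066. Ltb, the gene of lymphotoxin-beta, is a TNF family member, and its mean was 194 ± 11.5, 480 ± 10.01 and 441 ± 58.5 (SD, n = 4) in the 3 groups.

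Zfp36 encodes tristetraprolin, which binds AU-rich elements in the 3′ untranslated region of Tnf and other cytokine messenger RNAs and has them degraded, and it is known both as a target of the same inflammatory signals and as a glucocorticoid-induced gene. It stood at 278, 290, 295 and 294 with vehicle, at 240, 268, 264 and 280 with myoglobin, and at 303, 317, 321 and 329 with both. All libraries with dexamethasone lie above all others, and vehicle and myoglobin overlap. Dexamethasone added to myoglobin raised it by 0.27 ± 0.053 on the log2 scale, or 20.8% with a 95% interval of 11.6% to 30.7% (limma adjusted p = 0.00590, and 0.00103 to 0.0235 in the 21 other settings). The change with myoglobin alone was -0.14 ± 0.053 and missed the threshold (limma adjusted p = 0.0878), and 4 of the 21 other settings called it lower. Against vehicle the difference with both agents was 0.13 ± 0.053 (limma adjusted p = 0.0721). Zfp36 is the one gene of the 10 whose level with both agents is set apart from myoglobin alone by the test over all genes. It lies on the minus strand at chr7:28376784-28380253 and overlaps the antisense gene Gm44710, from which its reads cannot be told apart without strand.

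The element that tristetraprolin binds, TATTTAT as DNA, was searched on the transcribed strand in the longest annotated 3′ untranslated region of 9 of the 10 genes (GENCODE M21), all but Tnfaip3, overlapping copies included. It occurs in 4 of the 9 and in 27.6% of 21028 genes. Tnf holds 8 copies in 764 bases, Birc3 and Zfp36 3 copies each, Nfkbia 2, and the other 5 genes 0. Only 4.14% of all genes hold 3 or more. The lines give the densest 30 bases of each, 5′ to 3′ on the gene's strand, with the copies in capitals, to set the 5 copies within this stretch of Tnf beside the 1 to 3 in those of the regulators.
Tnf, chr17:35199678-35199707: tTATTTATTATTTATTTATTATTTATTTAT
Birc3, chr9:7857116-7857145: TATTTATTTATttaaaagattTATTTATta
Zfp36, chr7:28376962-28376991: gggcccttTATTTATgacgacttTATTTAT
Nfkbia, chr12:55489608-55489637: aggaccacgtttTATTTATtgtgcttttga
Of the genes with copies, Tnf, Birc3 and Nfkbia were called higher with myoglobin. With dexamethasone added their log2 differences were -0.10, 0.04 and 0.10, none of which passed. Zfp36, which also holds copies, was not called with myoglobin and was called higher with dexamethasone added (0.27, limma adjusted p = 0.00590). Of the genes without a copy, Nfkbiz, Relb, Nfkb2 and Nfkb1 were called higher with myoglobin and Traf1 lower.

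**Figure D2:**
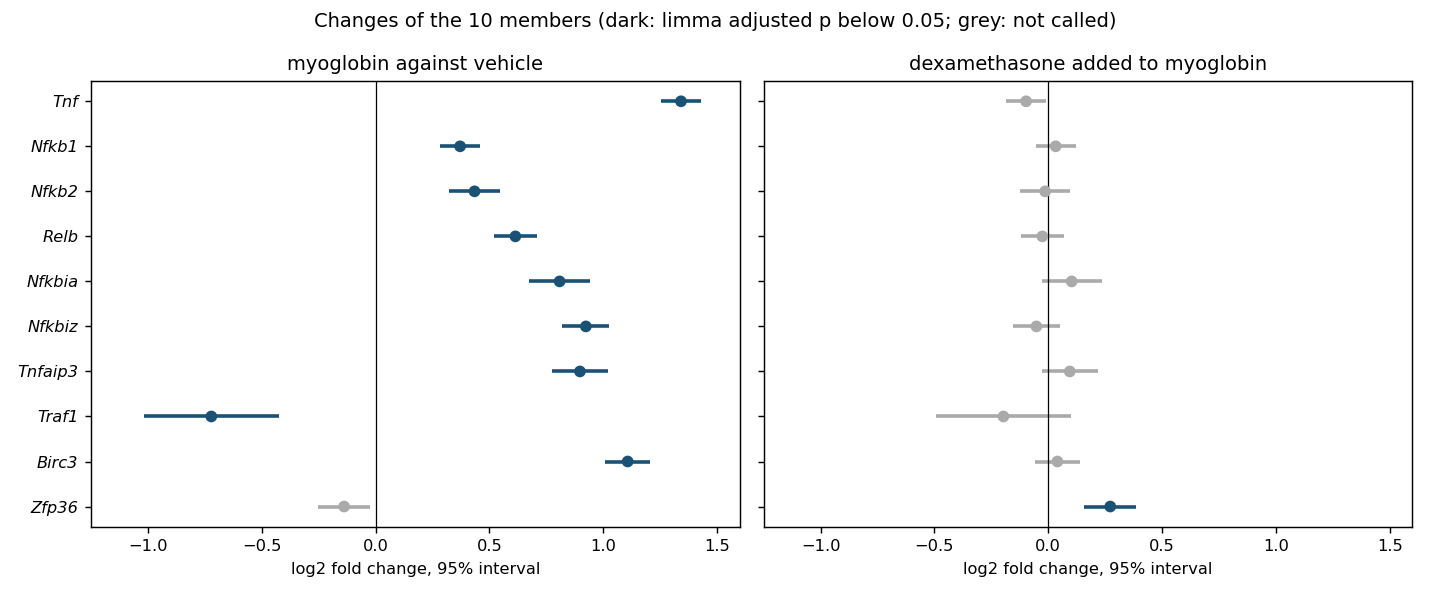
Log2 fold change (horizontal axis) with its 95% interval for each of the 10 genes, on the left myoglobin against vehicle and on the right dexamethasone added to myoglobin; dark points passed the limma test over all genes. On the left 8 genes lie to the right of 0 and Traf1 to the left, and on the right Zfp36 alone is dark.

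The 2 comparisons share the myoglobin libraries, so their values are set side by side without a test of how they relate. Against vehicle, myoglobin with dexamethasone left 8 of the 10 genes higher and 1, Traf1, lower, where 13.9% and 14.6% of all tested genes were called. Without any overlap of libraries, 9 genes stood above vehicle and 1 below with both agents, and 8 above and 1 below with myoglobin alone. The shares over all tested genes were 15.3% and 13.3% with both agents and 12.9% and 12.1% with myoglobin alone. As a description, the part of the myoglobin change that was present with both agents was 89.2% for Tnf (88.0% to 91.0% when each library was left out in turn), 92.8% for Nfkbiz, 94.7% for Relb and 96.7% for Nfkb2. It was 105% for Birc3, 111% for Nfkb1, 115% for Tnfaip3 (113% to 116%), and 118% each for Nfkbia and Traf1. Without replicate 4 of the dexamethasone group the value was 105% for both Nfkbia and Traf1, 97.1% for Nfkb1 and 85.9% for Nfkbiz. It was then 86.6% for Nfkb2 and 88.0% for Tnf, so Tnf was not the lowest without that library. The ranges of Nfkb1 and Nfkb2 include 100%. Those of Tnf, Nfkbiz and Relb lie below it and those of Birc3, Tnfaip3, Traf1 and Nfkbia above it. None of these departures from 100% corresponds to a call in the test of dexamethasone added to myoglobin.

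**Figure D3:**
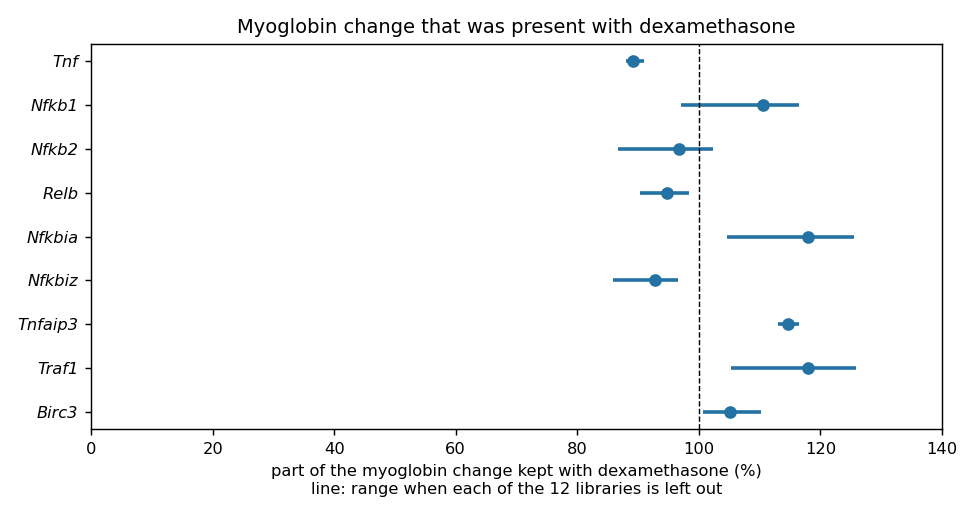
Part of the myoglobin change present with both agents, in percent of the change with myoglobin alone (horizontal axis, from 0), for the 9 genes called with myoglobin; lines span the values when each of the 12 libraries is left out. All 9 points lie between 89.2% and 118%, with Tnf the lowest when all libraries are used but not without replicate 4 of the dexamethasone group.

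The normalised reads of 3 inhibitors were set against those of Tnf within each library, where the scaling of libraries plays no part. The ratios are not corrected for transcript length, so they can be compared between groups but not between inhibitors, and their sign says nothing of which message is more abundant. The log2 ratio of Tnfaip3 to Tnf was 0.62 ± 0.13 with vehicle, 0.18 ± 0.043 with myoglobin and 0.37 ± 0.063 with both (SD, n = 4). By library it was 0.52, 0.72, 0.50 and 0.74, then 0.17, 0.22, 0.12 and 0.19, then 0.44, 0.32, 0.40 and 0.31, and the 3 groups do not overlap. The ratio of Nfkbia to Tnf was 1.10 ± 0.038, 0.57 ± 0.061 and 0.77 ± 0.14, and that of Zfp36 to Tnf was 0.68 ± 0.065, -0.80 ± 0.086 and -0.43 ± 0.029. The mean of each ratio was lowest with myoglobin alone, and no library with both agents reached the range of the vehicle libraries. The drop with myoglobin was -0.44 for Tnfaip3, -0.53 for Nfkbia and -1.48 for Zfp36 (two-sided exact permutation test over 4 against 4 libraries, p = 0.0286 each, the smallest this design can give, adjusted over the 6 ratios to 0.0343). For Zfp36 this outcome was fixed in advance. Tnf went from 177 to 187 with vehicle to 452 to 469 with myoglobin, while Zfp36 stayed within 240 to 295. That p therefore adds nothing to the call of Tnf. With dexamethasone added, the ratio was higher by 0.19 for Tnfaip3 and by 0.37 for Zfp36 (exact permutation p = 0.0286, adjusted 0.0343). Since every library with dexamethasone lies below those with myoglobin alone for Tnf and above them for Tnfaip3 and Zfp36, these ratios had to separate, and their p adds nothing to the single genes, of which Tnf and Tnfaip3 did not pass. For Nfkbia the difference was 0.20 (exact permutation p = 0.0571, adjusted 0.0571), and the groups overlap in 1 library of each. A ratio shows unequal change of its 2 genes and not which of them changed.

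**Figure D4:**
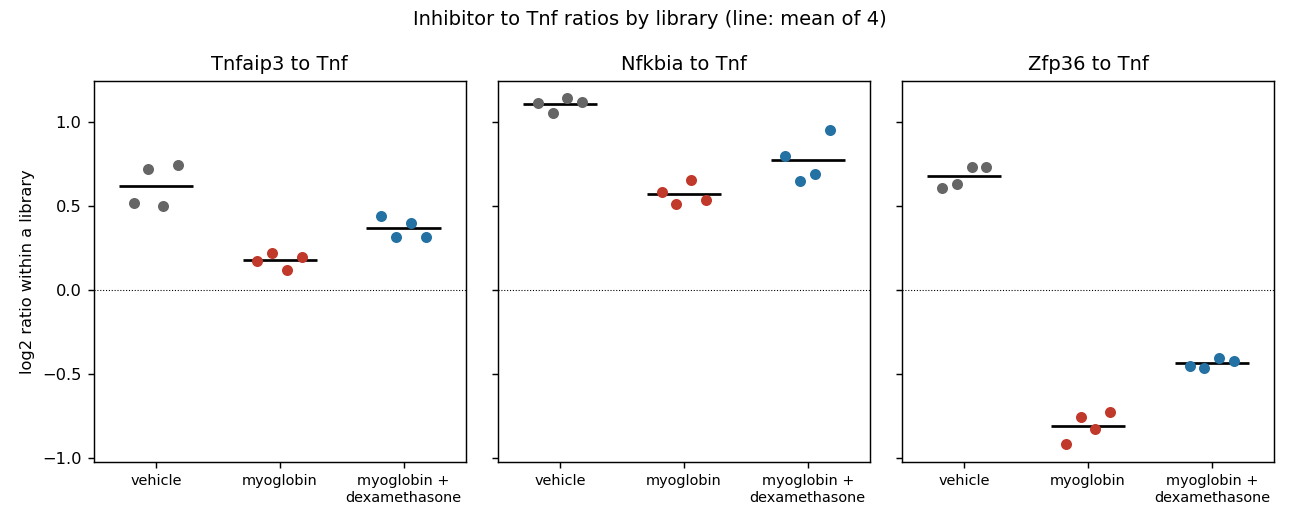
Log2 ratio of Tnfaip3, Nfkbia and Zfp36 to Tnf within each library (vertical axis), by treatment; points are libraries and lines are means of 4. The mean of each ratio is highest with vehicle and lowest with myoglobin, and no library with both agents reaches the range of vehicle.

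The rest of the pathway was counted over 122 listed genes in 10 classes by role, 111 of which were tested. With myoglobin 48 were called higher and 4 lower, 43.2% and 3.6% of them, beside 8.71% and 9.62% of all tested genes. With dexamethasone added 4 were called higher and 3 lower (6 and 5 without replicate 4 of the dexamethasone group). The 4 and 3 are shares of 3.6% and 2.7%, near the 3.08% and 3.9% of all tested genes. Counts without replicate 4, here and below, are to be read against fits with 1 library left out. Over all 14558 tested genes, such fits called 254 to 588 higher and 297 to 696 lower with dexamethasone added. Of 12 receptors, 21 adaptors and ubiquitin ligases and 9 kinases, the receptors and signalling steps above NF-kB, myoglobin raised 3, 5 and 5 and lowered 1 each, and dexamethasone raised 1, 1 and 0 and lowered 0. Cd40, a receptor that feeds the non-canonical pathway, rose by 2.73 ± 0.19 with myoglobin, and Ikbke, an IkB kinase family member, by 0.90 ± 0.051. Tnfrsf1b, the inducible one of the TNF receptors, was the one receptor called with dexamethasone, at 914 with myoglobin and 1113 with both (log2 change 0.28 ± 0.043, limma adjusted p = 9.72e-04). Of 7 TNF family and TNF release genes 3 rose with myoglobin, among them Ltb by 1.30 ± 0.074 and Rhbdf2, a partner of the protease that sheds TNF, by 0.32 ± 0.053. By limma 0 of the 7 were called with dexamethasone (1 at an unadjusted p below 0.05, beside 3226 of the 14558 tested genes). However, Ltb, at -0.13 ± 0.074, was called lower without replicate 4 of the dexamethasone group (limma adjusted p = 0.0186).

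Of 4 other IkB genes 3 rose with myoglobin. Of 20 genes listed as other negative regulators 7 rose, 1, Dusp1, fell and 12 were not called, with a median log2 change of 0.04 over the 20. The 7 include Tifa, which encodes an adaptor that activates NF-kB, so not all of them are negative regulators. Irak3, a kinase-like protein that blocks signalling from Toll-like receptors, rose by 2.71 ± 0.056, from a mean of 88.0 to 579, with the smallest p of the whole table (limma adjusted p = 8.13e-14), and stood at 568 with both agents. Zc3h12a, an endonuclease for inflammatory messages, rose by 1.78 ± 0.057 and differed by -0.04 ± 0.057 when dexamethasone was added. Tsc22d3, a known glucocorticoid target whose protein GILZ binds NF-kB, was the one other negative regulator called with dexamethasone. It went from 205 with vehicle to 262 with myoglobin and 359 with both (log2 change 0.45 ± 0.072 for dexamethasone added, limma adjusted p = 0.00135). The 11 genes listed as other decay factors include Elavl1, whose protein stabilises messages. Of the 11, dexamethasone changed 0 by the limma test over all genes (0 at an unadjusted p below 0.05, beside 3226 of the 14558 tested genes). The relatives of Zfp36 stood at 1018 with myoglobin and 1071 with both (Zfp36l1) and at 480 and 525 (Zfp36l2).

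Of 19 secreted and surface outputs tested 16 rose with myoglobin and 0 fell, and with dexamethasone added 3 fell and 1 rose (4 and 2 without replicate 4 of the dexamethasone group). Ccl20, a chemokine, rose from 73.8 to 295 with myoglobin and fell to 219 with both (-0.43 ± 0.070, limma adjusted p = 0.00185). Csf2, a growth factor of myeloid cells, went from 27.8 to 106 and then 54.8 (-0.94 ± 0.21, limma adjusted p = 0.0138), and Cxcl10, an interferon-inducible chemokine, from 36.3 to 53.3 and then 30.8. Csf1 rose by 1.20 ± 0.045 with myoglobin and differed by -0.08 ± 0.045 with dexamethasone added. Il34, which binds the receptor of Csf1, was the gene of this class that dexamethasone raised, by 0.39 ± 0.060. Of 6 survival outputs 3 rose with myoglobin, Fas by 1.41 ± 0.13 and Sod2 by 0.69 ± 0.052 among them. By limma 0 of the 6 were called with dexamethasone added (1 at an unadjusted p below 0.05, beside 3226 of the 14558 tested genes). Without replicate 4 of the dexamethasone group 1 of the 6, Cflar, an inhibitor of death receptor signalling, was called higher, by 0.14 (limma adjusted p = 0.0125).

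**Figure D5:**
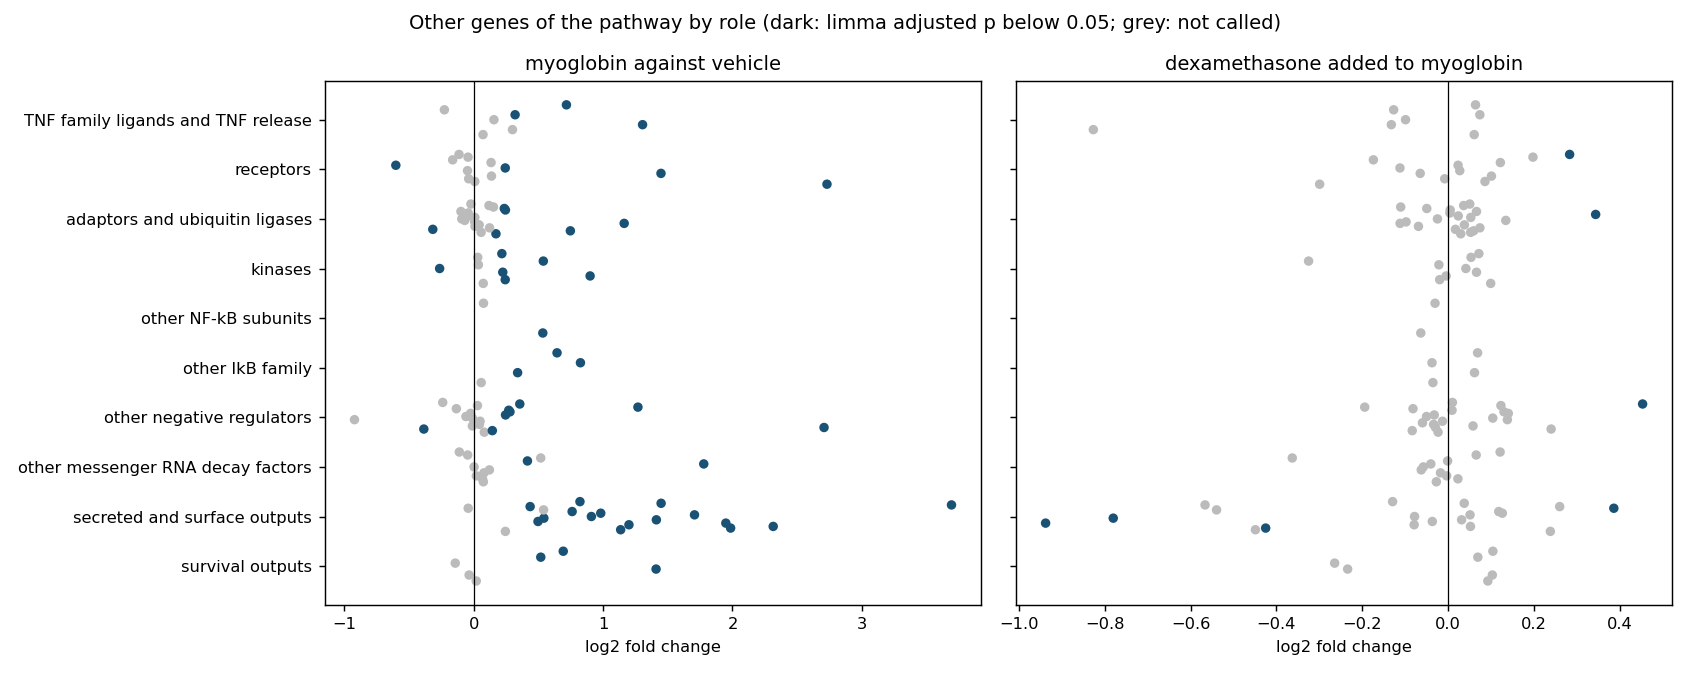
Log2 fold change (horizontal axes, of different range) of the other tested genes of the pathway by role (rows), for myoglobin against vehicle on the left and dexamethasone added to myoglobin on the right; dark points passed the limma test over all genes. With myoglobin 48 dark points lie to the right of 0 and 4 to the left, and with dexamethasone added 4 and 3.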

How the data were processed

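Messenger RNA of 12 tubuloid libraries was sequenced from stranded libraries, per the labels' protocols. Per the submitters' processing notes the authors used build mm10 with DESeq2 1.36.0, featureCounts 2.0.3, Picard 2.27.4, STAR 2.7.10a and Trimmomatic 0.39. Their roles are not given, so whether duplicates were removed is not given in the sources used here. The deposited values are whole numbers and are read as a normalised score: reads over a library's size factor, rounded, as the steps between values show. Depth per library was estimated from these steps. Coordinates are those of the table, and for 98.9% of genes GENCODE M21 gives the same start and end.

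Groups were taken from the labels. Because the deposited score is not a count, limma-trend (limma 3.58.1, R 4.3.3) was run on log2 of the value plus 1, for genes at 10 or more in at least 4 libraries, with the 3 groups in 1 fit. Two-sided p-values were adjusted by Benjamini-Hochberg over 14558 genes in each of 3 comparisons, with a threshold of 0.05. The test was checked on simulated data. Ratios were compared with exact permutation tests. Other steps used scipy 1.17.1, pandas 2.3.3, numpy 2.4.6 and matplotlib 3.10.9 under Python 3.11.15. No 2 libraries of a group held equal values (6.92% to 9.77% of genes equal).

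The 10 genes, the pathway classes and the marker lists were chosen with earlier results of these data known. Named are the 10 genes, up to 2 passing genes with the smallest p per class in the first 2 comparisons, the 5 tested genes nearest to Tnf and to Traf1, leaving out predicted genes, and Fkbp5. Dusp1, Cxcl10, Csf2, Cflar, Zfp36l1, Zfp36l2 and the marker genes were named after their values were seen. The alternatives were other pseudocounts (0.1 and 10), no filter, 3 other scalings, a fit of 2 groups only, library weights, the replicate number as a block, and each library left out. The counts of pathway genes without replicate 4 of myoglobin with dexamethasone were added after seeing the data. The 3′ untranslated region of 1 of the 10 genes is not reported here.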

Additional observations from a re-analysis of the deposited data

Results flagged for a closer look

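Nfkb1 stood at 1099 in replicate 4 of myoglobin with dexamethasone, where the other 3 libraries of the group stood at 969, 978 and 987. The gap to the next library is larger than Dixon's 95% limit for 4 samples. This was the 1 value so marked among 39 groups of 4 libraries checked, and chance marks about 1 in 20 such groups. Without this library the log2 difference of Nfkb1 when dexamethasone was added to myoglobin was -0.01 (limma adjusted p = 0.876).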

How the results depend on the processing

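Of the 10 genes, none changed its call for dexamethasone added to myoglobin in any of 21 other settings. For myoglobin against vehicle the count of members called lower was 2 in place of 1 with library weights, quantile normalization, upper quartile scaling and the replicate block, in each because Zfp36 passed (lowest adjusted p 0.0364), and no other member changed its call. For both agents against vehicle, Zfp36 alone changed, passing with the replicate block and when 1 library was left out (adjusted p 0.0350 with the block). Over all genes, myoglobin gave 2143 higher and 2171 lower with library weights, in place of 1268 and 1401, and 962 to 1926 higher when each library was left out. Dexamethasone added gave 740 higher and 885 lower with library weights, 274 and 365 with only these groups fitted, 749 and 1039 with the replicate block, and, leaving out each library, 254 to 588 higher and 297 to 696 lower, in place of 448 and 568. The lowest of these for dexamethasone came without replicate 4 of myoglobin, and counts also moved without replicates 2 (290 and 327) and 3 (291 higher) of myoglobin. The 1926 came without replicate 4 of the dexamethasone group. The cause was not tested. Deviations from the group mean correlated from -0.02 to 0.46 between same-numbered libraries, and 9 of 12 were over 0.1. Between different-numbered libraries they correlated from -0.40 to 0.20. The labels do not say whether a number marks a shared source, so pairing is left undecided, and the main fit does not use it. The ratios kept their direction throughout, but with a library left out the exact permutation test cannot go below p = 0.0571, and by pairs not below 0.125. The 4 libraries per group and the 3.25 M reads of 1 library limit precision: the interval for Traf1 with dexamethasone added ran from -0.49 to 0.10.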
